A study of Mus musculus with 12 samples.

Results

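The introns described here were the retained introns that the authors' splicing tables list as changed between mouse cells given 4-hydroxytamoxifen (4-OHT), which removes Prmt5 from cells of this genotype, and cells given ethanol. A retained intron is one that stays in the mature transcript. Its inclusion level, from 0 to 1, is an estimate of the share of transcripts that hold it. It is made from read counts corrected for length, so a level of 1 means that no spliced junction reads were counted. Members were all events of the retained intron class in either table, apart from 14 genes set aside by name, Prmt5 among them. That left 70 introns in 68 genes in neural progenitor cells (NPC), of 255 listed splicing events, and 21 introns in 21 genes in mouse embryonic fibroblasts (MEF), of 71 listed events. Over both cell types these were 81 distinct introns in 79 genes, of 306 distinct listed events.

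The series holds 12 RNA libraries in 4 groups of 3, all of the genotype Prmt5 F/FER on a mixed C57BL/6 X 129S1/SvlmJ background and from E14.5 embryos. NPC, grown from the cortex as neurospheres with EGF and FGF at 20 ng/ml each, were treated at day 4 with 50 nM 4-OHT or with ethanol for 24 h. Confluent MEF of passage 1 received the same 2 treatments. The study set Prmt5-depleted cells against controls to ask how splicing depends on PRMT5, per its title and design text. None of the groups is labelled as cells without the floxed allele that received 4-OHT, so the agent and the loss of Prmt5 cannot be told apart. Nothing in the labels ties replicates to different cultures or embryos, so p-values measure only the spread between these libraries, which may be technical. Prmt5 stood at 4.92 RPKM with 4-OHT and 33.4 RPKM with ethanol in NPC, and at 3.76 RPKM with 4-OHT and 21.0 RPKM with ethanol in MEF, in the authors' deposited table. The tables list changed genes only, so the absence of most NPC and fibroblast markers from them says nothing about the identity of the cells. Of 12 progenitor markers, Hes5 alone is listed in NPC, at 4.77 RPKM with 4-OHT and 15.8 RPKM with ethanol in the authors' deposited table. The listed members of the oligodendrocyte list, 4 of 8, summed to 21.8 RPKM with 4-OHT and 7.58 RPKM with ethanol in NPC in the authors' deposited table, and those of the astrocyte list, 3 of 4, to 122 RPKM with 4-OHT and 68.9 RPKM with ethanol. Of the neuron list 4 of 8 are listed, 3 higher and 1 lower with 4-OHT. They summed to 11.0 RPKM with 4-OHT and 6.25 RPKM with ethanol in the authors' deposited table. Of endothelium and blood 2 of 7 are listed, of immune cells 1 of 6 and of fibroblasts 1 of 10, all higher with 4-OHT. In the authors' deposited table these lists summed to 0.258, 1.12 and 0.396 RPKM with 4-OHT and 0.146, 0.569 and 0.214 RPKM with ethanol. The part of these cells in the retained introns was not tested. In MEF 0 genes of the marker lists are listed.

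PRMT5 is an arginine methyltransferase that modifies Sm proteins, the ring of proteins around the small nuclear RNAs of the spliceosome. The spliceosome finds an intron by its donor site, where U1 small nuclear RNA pairs with the last exon and first intron bases, and by the acceptor site at its other end. A transcript that keeps an intron is often held in the nucleus, and one that reaches the ribosome with a stop codon far upstream of a later exon junction is commonly degraded by nonsense-mediated decay.

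Donor sites are shown first, because this is the part of the intron that U1 reads and it played no role in the choice of members. They are those of 9 introns with the largest changes among NPC introns listed in 3 pairs with at least 20 reads in every library, and then of 9 of the 10 introns listed in both cell types, without that of Mrps17, which lies in the 5′ untranslated region. Each set is ordered by its matches. Each line gives the last 3 exon bases and the first 6 intron bases, 5′ to 3′, from GENCODE transcripts of the GRCm38 build, with capitals at each position that matches the reference donor in the first line.
Reference donor: CAGGTAAGT
Rabl2, chr15:89584008-89584278, minus strand: atGGTggGg
Cep110, chr2:35175601-35176127, plus strand: aAGGTtgcc
Tmem44, chr16:30540910-30543401, minus strand: atcGTgAGa
Rrnad1, chr3:87924529-87924946, minus strand: agaGTgAGg
Pddc1, chr7:141409941-141410777, minus strand: gcaGTggGT
Ampd2, chr3:108079327-108079586, minus strand: CtGGTggGa
Gba2, chr4:43570191-43570345, minus strand: CtGGTgAtg
Dvl1, chr4:155853759-155853982, plus strand: CcaGTAAGg
Ccdc106, chr7:5059706-5060206, plus strand: ggGGTgAGT
Fxc1, chr7:105640858-105641027, plus strand: gAGGTggag
Phkg2, chr7:127577711-127577974, plus strand: tcaGTgAGg
Ppox, chr1:171279575-171279868, minus strand: gAGGTgAca
Ankrd13b, chr11:77472613-77472724, minus strand: CcaGTgAGa
0610011F06Rik, chr17:25876740-25876949, plus strand: atGGTAgGc
2500003M10Rik, chr3:90506262-90507544, minus strand: gcGGTgAGg
Adamts10, chr17:33538174-33538263, plus strand: CAcGTgAGg
Parl, chr16:20285836-20286919, minus strand: CAGGTAAta
Wdr75, chr1:45817444-45818169, plus strand: aAGGTAgGT
Of these, 7 matched the reference at 4 of 9 positions, 6 at 5, 3 at 6 and 2 at 7. The 3 introns whose spliced junction reads were at 0 with 4-OHT in both cell types, those of Parl, Wdr75 and 2500003M10Rik, matched at 7, 7 and 5. Over all 79 members with a sequence, 19.0% had 4 matches, 36.7% had 5, 35.4% had 6 and 7.59% had 7.

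Whole introns are shown for short members, because most of these introns are short enough to be read through and because a reader can see where translation would meet a stop codon. Capitals mark the first stop codon in the reading frame that enters from the upstream exon, in GRCm38. An intron in lower case throughout has none.
Slc1a5, chr7:16795953-16796023, plus strand: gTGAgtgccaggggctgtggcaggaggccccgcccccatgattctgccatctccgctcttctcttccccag
Adamts10, chr17:33538174-33538263, plus strand: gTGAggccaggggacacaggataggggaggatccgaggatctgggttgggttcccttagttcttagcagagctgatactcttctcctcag
Ankrd13b, chr11:77472613-77472724, minus strand: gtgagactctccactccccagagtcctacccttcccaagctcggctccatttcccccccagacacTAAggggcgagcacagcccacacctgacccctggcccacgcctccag
Galt, chr4:41756562-41756681, plus strand: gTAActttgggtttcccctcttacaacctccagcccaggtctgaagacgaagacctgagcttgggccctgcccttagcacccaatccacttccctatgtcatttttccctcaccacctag
Med12, chrX:101294013-101294087, plus strand: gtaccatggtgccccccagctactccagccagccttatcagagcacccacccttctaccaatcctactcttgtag
Fxr1, chr3:34058082-34058168, plus strand: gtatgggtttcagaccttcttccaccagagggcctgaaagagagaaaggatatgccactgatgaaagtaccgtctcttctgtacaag
In Slc1a5, Adamts10 and Galt the first in-frame stop codon starts at base 2 of the intron, within the donor site itself, and in Ankrd13b at base 66. The introns of Med12 and Fxr1, 75 and 87 bases long, hold no in-frame stop codon and keep the reading frame.

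Most listed retained introns were held more often with 4-OHT in both cell types. In NPC 67 of 70 introns had a higher inclusion level with 4-OHT and 3 a lower one, and in MEF 19 of 21 were higher and 2 lower. The share of higher events was 95.7% among these introns in NPC, against 45.7% of the 173 listed events of the other splicing classes and 62.0% of all listed events. In MEF it was 90.5%, against 34.0% of the 50 events of other classes and 50.7% of all listed events. The median inclusion level was 0.564 with 4-OHT and 0.161 with ethanol in NPC, and 0.669 with 4-OHT and 0.225 with ethanol in MEF. The median difference, 4-OHT minus ethanol, was 0.318 in NPC and 0.380 in MEF, where the listing itself requires a difference over 0.2 in each listed pair. Whether introns were listed more often than other event classes was not tested, because the sources used here do not give the number of introns the authors tested.

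Each event is listed for 2 or 3 pairs of 1 4-OHT library and 1 ethanol library, under codes 24, 26 and 28 in NPC and 159, 161 and 163 in MEF. In NPC 23 introns (32.9%) are listed in 3 pairs, against 23.1% of all listed events, and in MEF 4 (19.0%), against 12.7%. For each of these introns the 3 libraries with 4-OHT and the 3 with ethanol did not overlap. The same held for 100% of all events listed in 3 pairs in either table, so the listing fixes it. The exact two-sided permutation test gave p = 0.1 for each, the smallest that 3 against 3 libraries allow, so no single intron could pass a threshold of 0.05. With each pair code left out and at least 2 listed pairs still required, 47, 33 and 31 introns were higher in NPC without codes 24, 26 and 28, and 9, 8 and 10 in MEF without codes 159, 161 and 163.

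**Figure D1:**
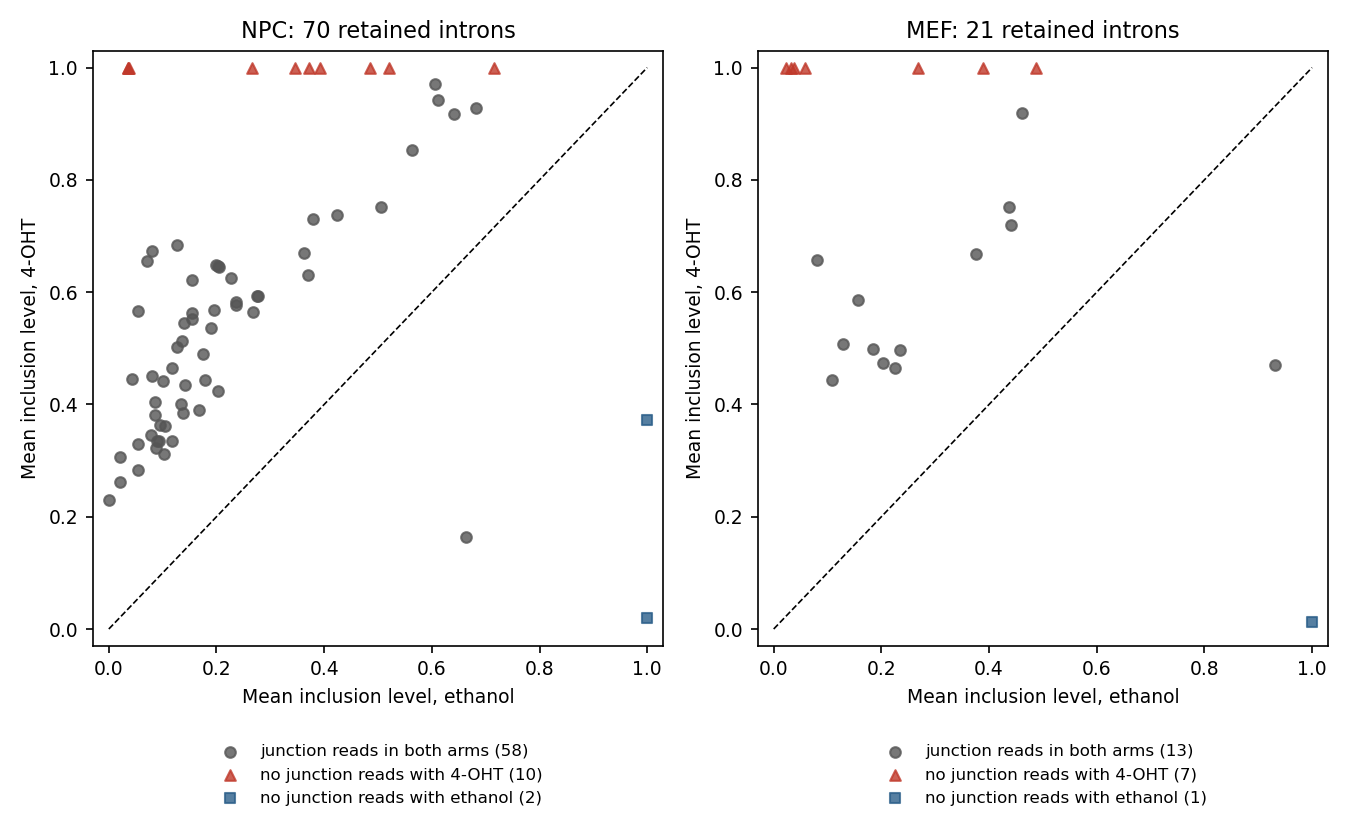
Mean inclusion level with 4-OHT (vertical) against ethanol (horizontal) for each retained intron, on a scale of 0 to 1, with 1 point per intron and the dashed line at equal levels. In NPC 67 of 70 points and in MEF 19 of 21 lie above the line, and the triangles along the top are the 10 and 7 introns with no spliced junction reads in any listed 4-OHT library.

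Read support came from 2 kinds of reads, those of the intron-containing form and those across the spliced junction. A library had a median of 169 reads per intron with 4-OHT and 101 with ethanol in NPC, and 111 with 4-OHT and 84.5 with ethanol in MEF. The range was 7 to 7308 with 4-OHT and 7 to 5712 with ethanol in NPC, and 11 to 1599 with 4-OHT and 7 to 1452 with ethanol in MEF. Fewer than 20 reads were present in at least 1 library for 7 introns in NPC and 3 in MEF. Of 57 NPC introns with a higher level and junction reads in both arms, 52 had more intron reads and fewer junction reads with 4-OHT. Over the 57 the median ratio of 4-OHT to ethanol was 2.62 for intron reads and 0.5 for junction reads. In MEF the same held for 11 of 12 introns, with median ratios of 1.99 for intron reads and 0.503 for junction reads. Since introns with a higher level were picked for these counts, the choice itself favours this pattern. It was not counted for the other event classes. Reads over the other listed event classes had a median ratio of 0.963 in NPC and 1.07 in MEF, as a rough guide to depth. By pair code this ratio ran between 0.899 and 1.05 in NPC and between 0.731 and 1.42 in MEF. In bulk samples, fewer cells of a type and less RNA per cell cannot be told apart. The level corrects each kind of read for length, and as a share of raw reads, without that correction, 42 of 62 differences among the named introns are smaller by more than 1.5 times and 1, of Plod3, is larger. None turns its sign, and the median ratio of the raw difference to the reported one is 0.530. In NPC the raw difference is 0.0111 for 2500003M10Rik, 0.0278 for Fnbp1, 0.0469 for Tmem44, 0.0490 for Rrnad1 and 0.0631 for Ppox. In MEF it is 0.0280 for 2500003M10Rik, 0.0550 for Aebp2 and -0.0530 for Mettl17.

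A second kind of event had no spliced junction reads at all in 1 arm. The 4-OHT libraries held 0 junction reads over 10 introns in NPC (14.3%, against 11.0% of other listed events) and 7 in MEF (33.3%, against 12.0%). The ethanol libraries held 0 over 2 introns in NPC (2.86%, against 9.83%) and 1 in MEF (4.76%, against 22.0%). Nono in MEF is the one such intron listed in 3 pairs. It encodes an RNA-binding protein of nuclear paraspeckles, and its intron of 504 bases lies at chrX:98640130-98640633 in mm9. Junction reads were 0, 0 and 0 with 4-OHT, against 171, 147 and 79 with ethanol, and intron reads were 225, 141 and 122 with 4-OHT, against 97, 67 and 45 with ethanol. Every 4-OHT library therefore has the level 1, against 0.035, 0.028 and 0.035 with ethanol. With 0 of 488 reads, up to 0.615% of reads could have crossed the junction, which would put the level at 0.912, counting error only. Pafah1b1 in NPC, which encodes the dynein regulator LIS1 of neuronal migration, had 0 and 0 junction reads with 4-OHT and 111 and 305 with ethanol. Its intron reads, 301 and 679 with 4-OHT and 253 and 434 with ethanol, differed far less. With 0 of 980 reads up to 0.306% could have crossed its junction, for a level of 0.871.

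Over the 10 NPC introns without junction reads the median ratio of intron reads, 4-OHT to ethanol, was 1.62, and over the 7 MEF introns it was 1.17, below the ratios of the other introns. For Wdr75 in NPC intron reads were even lower with 4-OHT, at 79 and 60, against 135 and 76 with ethanol, while junction reads were 0 and 0 with 4-OHT and 159 and 108 with ethanol. Its 139 reads with 4-OHT allow a junction share of up to 2.16%, for a level of 0.690. Slc1a5 in NPC had 15 and 18 intron reads with 4-OHT and 25 and 24 with ethanol. The cause of the missing junction reads was not tested. Without the introns that lack junction reads in 1 arm, 57 were higher and 1 lower in NPC, with a median difference of 0.315, and 12 were higher and 1 lower in MEF, with a median difference of 0.315.

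**Figure D2:**
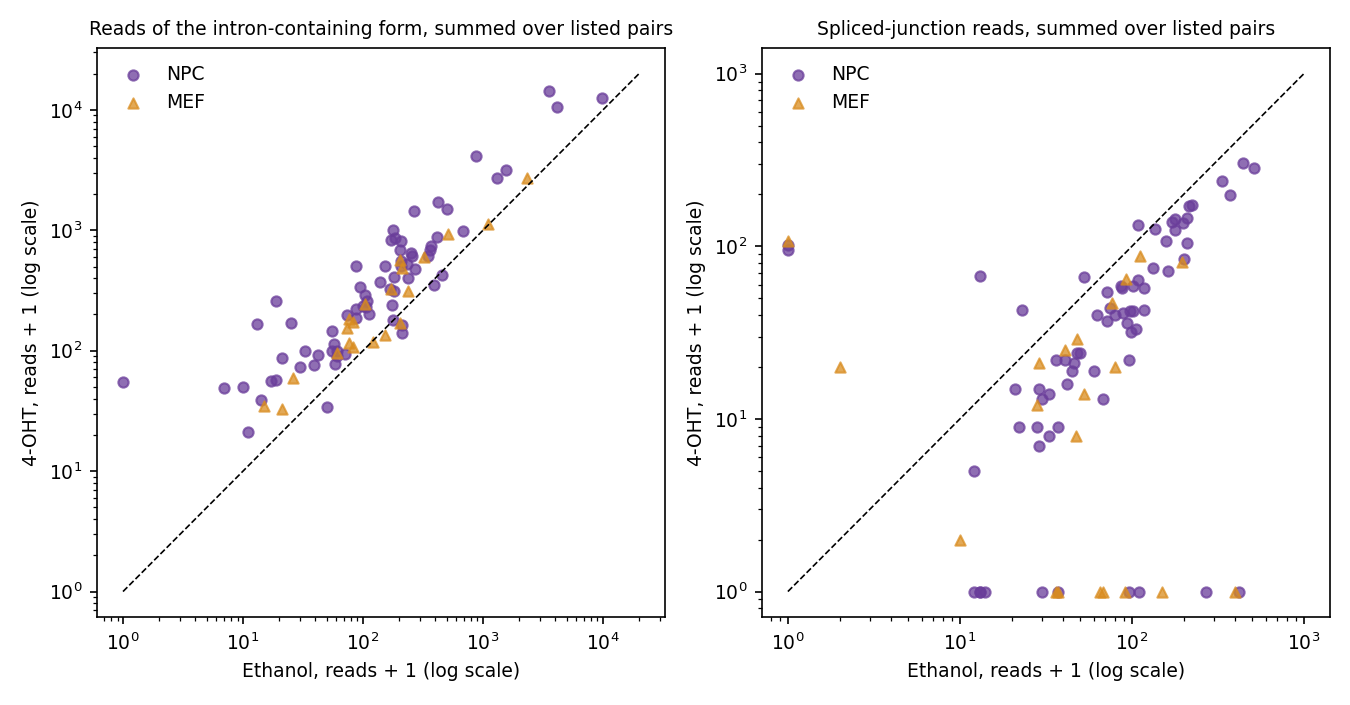
Reads of the intron-containing form (left) and across the spliced junction (right), with 4-OHT (vertical) against ethanol (horizontal), summed over listed pairs and plotted as reads + 1 on log scales, with 1 point per intron. Most introns lie above the dashed line of equal reads on the left and below it on the right, and points at the lower edge of the right panel have 0 junction reads with 4-OHT.

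Among NPC introns listed in 3 pairs with at least 20 reads in every library, the largest gain in level was in Dvl1, which encodes a Dishevelled protein that relays Wnt signals. The levels of its 224-base intron 4 of 15, chr4:155227868-155228091 in mm9, were 0.628, 0.644 and 0.592 with 4-OHT and 0.128, 0.174 and 0.161 with ethanol. The means were 0.621 ± 0.0266 with 4-OHT and 0.154 ± 0.0237 with ethanol (SD, n = 3 each). The difference was 0.467, and a gap wider than the spread in either arm is favoured by the listing. Intron reads summed to 832 with 4-OHT, against 170 with ethanol. Rabl2, which encodes a small GTPase of cilia, was less even: its 3 levels were 0.424, 0.732 and 0.782 with 4-OHT and 0.191, 0.204 and 0.215 with ethanol. The ethanol libraries lie close together and the 4-OHT library of code 24 is low, though above all of them.

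Cep110, which encodes the centrosome protein centriolin, kept a 527-base intron near its end, intron 41 of 43. Its levels were 0.592, 0.598 and 0.743 with 4-OHT and 0.199, 0.205 and 0.209 with ethanol. Ampd2, an AMP deaminase gene of purine metabolism, had 0.606, 0.616 and 0.528 with 4-OHT and 0.238, 0.249 and 0.223 with ethanol. In both genes every 4-OHT library was more than 0.2 above every ethanol library, which the listing already requires within each pair.

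Rrnad1, named for a ribosomal RNA adenine dimethylase domain, stood at 1, 0.911 and 1 with 4-OHT and was largely retained already with ethanol, at 0.634, 0.556 and 0.626. Its junction reads were few, at 0, 6 and 0 with 4-OHT and 6, 15 and 7 with ethanol, which limits the precision of these levels. Tmem44 had the second longest intron, 2492 bases, and the most reads among introns listed in 3 pairs, 14268 intron reads with 4-OHT and 3530 with ethanol. Levels were 0.519, 0.558 and 0.533 with 4-OHT, against 0.22, 0.189 and 0.162 with ethanol. Pddc1 had 0.346, 0.493 and 0.376 with 4-OHT and 0.095, 0.07 and 0.094 with ethanol.

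**Figure D3:**
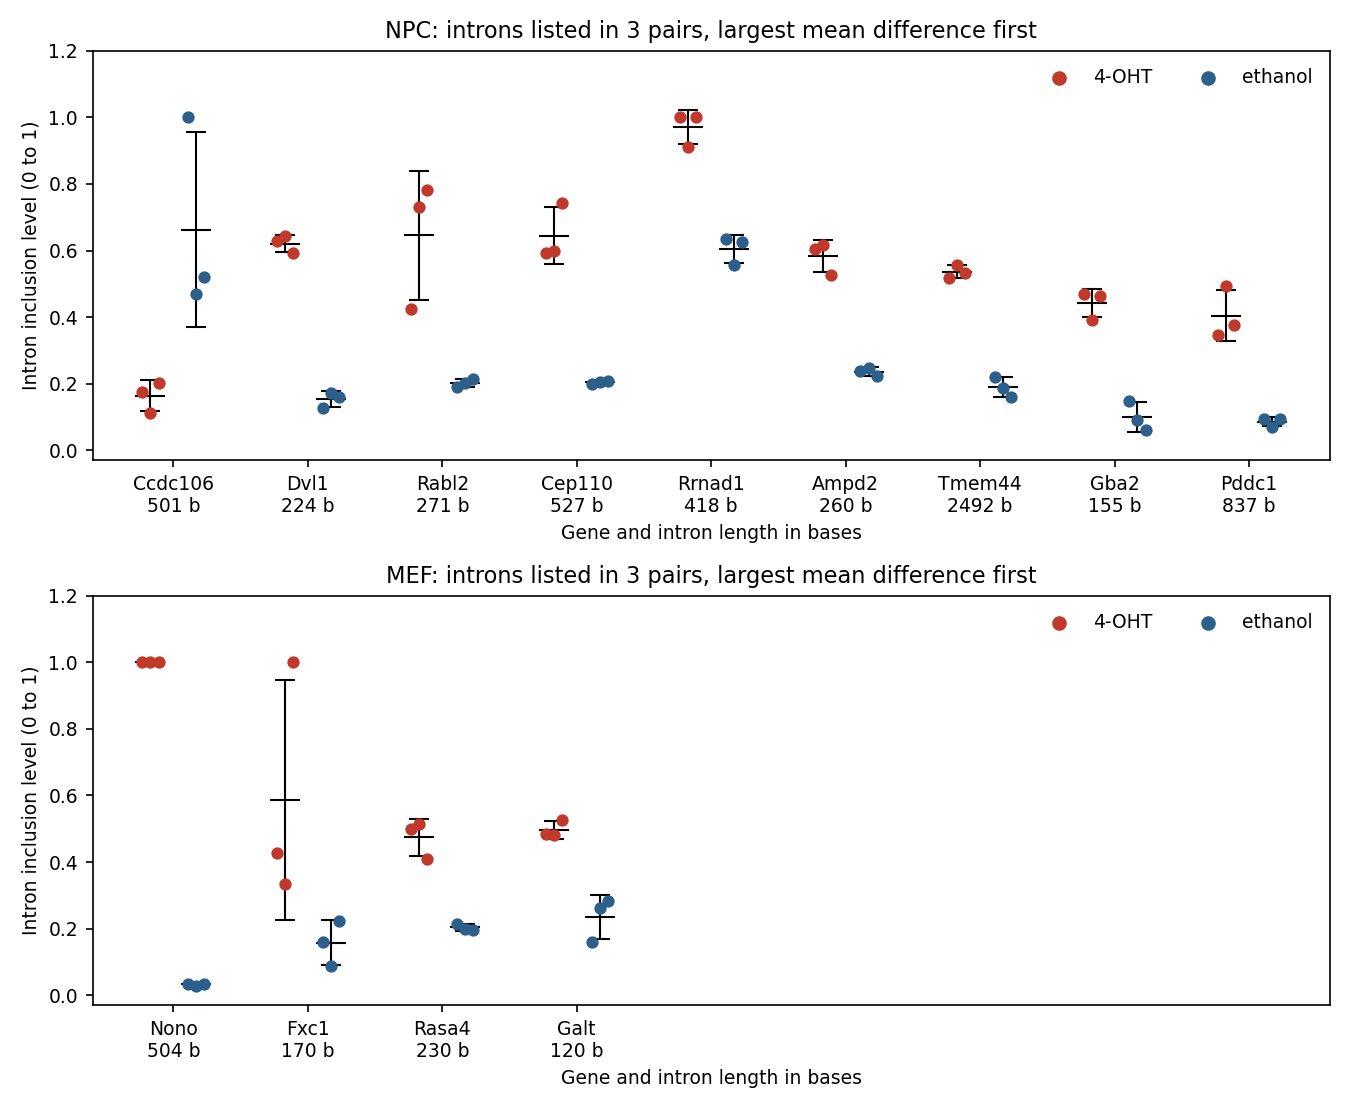
Inclusion level (0 to 1) of each library, with the mean and SD as bars, for the 9 NPC introns (top) and the 4 MEF introns (bottom) with the largest mean differences among those listed in 3 pairs with at least 20 reads in every library, 4-OHT left of ethanol in each gene. Ccdc106 is the single intron shown with lower levels with 4-OHT, and in Fxc1 the mean of 0.587 with 4-OHT is drawn up by 1 library at 1.

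Since 95.7% of NPC members and 90.5% of MEF members were higher, the counts of the function groups that follow lie near that share, and none is shown to be particular to its group. RNA processing and ribosome biogenesis was the largest assigned group in NPC beside membrane traffic, with 11 genes, of which 9 had a higher level and 2 a lower one. Wdr75, which encodes a protein of the complex that matures small-subunit ribosomal RNA, was among the zero-junction introns in both cell types. Trmt1, a tRNA methyltransferase gene, had levels of 0.451, 0.39 and 0.431 with 4-OHT and 0.207, 0.177 and 0.226 with ethanol. Ddx51, an RNA helicase gene of ribosome assembly, had 0.333, 0.305 and 0.352 with 4-OHT and 0.069, 0.052 and 0.042 with ethanol. Genes of intron recognition itself are in the group. Prpf40b, whose protein binds U1, had 0.389, 0.349 and 0.466 with 4-OHT, against 0.105, 0.141 and 0.155 with ethanol. U2af1l4, a relative of the small U2AF subunit that reads the acceptor site, had 1 and 0.885 with 4-OHT and 0.661 and 0.562 with ethanol. Skiv2l, a helicase gene of the cytoplasmic exosome, had 0.328, 0.392 and 0.371 with 4-OHT and 0.088, 0.118 and 0.078 with ethanol.

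Lysosome, glycolipid and membrane traffic genes were as many in NPC, 11 genes with 12 introns, and all 12 had a higher level, with a median difference of 0.301. Neu1, the lysosomal sialidase gene, and Ctsa, which encodes the cathepsin A that protects it, were both members. Neu1 had levels of 0.453, 0.49 and 0.529 with 4-OHT and 0.135, 0.124 and 0.267 with ethanol over an intron of 1174 bases. Ctsa had 0.33 and 0.283 with 4-OHT, against 0.031 and 0.01 with ethanol, so that its 111-base intron was nearly always removed in ethanol libraries. Gba2, the gene of the non-lysosomal glucosylceramidase, kept 2 introns. Its 155-base intron had 0.47, 0.393 and 0.464 with 4-OHT and 0.15, 0.09 and 0.061 with ethanol, and its 168-base intron 0.383 and 0.309 with 4-OHT and 0.069 and 0.089 with ethanol. Txlna, a syntaxin partner gene, had low but even levels, 0.26, 0.28 and 0.311 with 4-OHT and 0.052, 0.058 and 0.051 with ethanol. Hps5, which serves the making of lysosome-related organelles, rested on 1 library: levels were 1 and 0.367 with 4-OHT and 0.092 and 0.16 with ethanol. Its difference of 0.558 becomes 0.207 without code 24 and 0.908 without code 28. Glb1l, of the lysosomal galactosidase family, had 0 and 0 junction reads with 4-OHT and 6 and 6 with ethanol, beside 27 and 45 intron reads with 4-OHT and 14 and 15 with ethanol.

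Mitochondrial genes numbered 6 in NPC, all 6 higher, and 6 in MEF, 5 of them higher. Mrps17, a protein of the small mitochondrial ribosome subunit, was even in NPC, with 0.678, 0.672 and 0.659 with 4-OHT and 0.377, 0.354 and 0.359 with ethanol. Its intron lies in the 5′ untranslated region and so does not interrupt the coding sequence. Surf1, an assembly factor gene of cytochrome c oxidase, shares the shortest intron length with Slc1a5, 71 bases, and had 0.464 and 0.436 with 4-OHT and 0.084 and 0.076 with ethanol. Mtfmt, whose enzyme formylates the mitochondrial initiator tRNA, had 0.67 and 0.58 with 4-OHT, against 0.278 and 0.175 with ethanol. Stoml2, of the mitochondrial inner membrane, was listed in MEF with 0.316 and 1 with 4-OHT and 0.059 and 0.103 with ethanol. That value of 1 rests on 11 reads of the library of code 163, and the difference of 0.577 becomes 0.257 without it and 0.897 without code 159.

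Transcription and chromatin genes were 6 in NPC, all higher. Med12, of the Mediator complex, and Suds3, of the Sin3 corepressor, were among the most retained introns already with ethanol. Med12 had 0.924 and 0.909 with 4-OHT and 0.645 and 0.638 with ethanol, and Suds3 0.942 and 0.914 with 4-OHT and 0.667 and 0.698 with ethanol. Summed intron reads of Suds3 were lower with 4-OHT, 426 against 457 with ethanol, and its junction reads were 12 with 4-OHT against 67 with ethanol. Gtf3c2, which encodes a subunit of the RNA polymerase III factor TFIIIC, was spliced more fully, at 0.355, 0.391 and 0.398 with 4-OHT and 0.07, 0.107 and 0.079 with ethanol. Mbd6, of the methyl-CpG-binding domain family, had 0.506 and 0.621 with 4-OHT and 0.167 and 0.141 with ethanol. The zinc finger gene Zfp523 had 0.525 and 0.66 with 4-OHT and 0.278 and 0.271 with ethanol, and Zfp672, without junction reads with 4-OHT, had 1 and 1 with 4-OHT and 0.339 and 0.446 with ethanol. The difference for Zfp523 is 0.0833 as a share of raw reads and 0.318 in level. Aebp2, a partner of the Polycomb complex PRC2, was listed in MEF with 0 junction reads with 4-OHT, against 30 and 34 with ethanol, beside 714 and 416 intron reads with 4-OHT and 602 and 497 with ethanol.

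Genes of signalling and cell death were higher in 5 of 5 cases in NPC and 3 of 3 in MEF. In MEF, Rasa4, which encodes a GTPase-activating protein for Ras, had levels of 0.498, 0.514 and 0.41 with 4-OHT and 0.215, 0.199 and 0.197 with ethanol. Its means were 0.474 ± 0.056 with 4-OHT and 0.204 ± 0.00987 with ethanol (SD, n = 3 each), a gap that the listing favours. Lrdd, the gene of the death domain protein PIDD1, had 1 and 0.84 with 4-OHT and 0.602 and 0.321 with ethanol in MEF, on 1 junction read with 4-OHT and 9 with ethanol. Dgkq, a diacylglycerol kinase gene, had 0.665 and 0.473 with 4-OHT and 0.177 and 0.212 with ethanol in NPC.

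Genes of the cytoskeleton and centrosome were all higher, 4 genes with 5 introns in NPC and 2 genes in MEF. Fnbp1, which encodes a membrane-bending protein that acts with actin, had the longest intron, 4146 bases. Its levels were 0.395 and 0.385 with 4-OHT and 0.168 and 0.168 with ethanol, on 10648 intron reads with 4-OHT and 4139 with ethanol. The gene 1600002H07Rik, annotated as Tedc2, a partner of delta and epsilon tubulin, kept 2 neighbouring introns. Its 118-base intron had 0.55, 0.34 and 0.414 with 4-OHT and 0.134, 0.138 and 0.152 with ethanol. Its 206-base intron had 1 and 0.312 with 4-OHT and 0.078 and 0.063 with ethanol, and the difference of 0.586 becomes 0.249 without code 24 and 0.922 without code 28. Tctex1d2, a dynein light chain gene, had 0 and 0 junction reads with 4-OHT and 26 and 9 with ethanol in MEF, so its levels were 1 and 1 with 4-OHT and 0.041 and 0.075 with ethanol. With 0 of 106 reads up to 2.83% could have crossed its junction, for a level of 0.446. Fhod1, a formin gene, was listed in MEF with 0.457 and 0.559 with 4-OHT and 0.163 and 0.093 with ethanol.

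Metabolism and transport genes were higher in 5 of 5 cases in NPC. Slc30a9, of the zinc transporter family, kept an intron of 2300 bases at 0.305, 0.3 and 0.364 with 4-OHT and 0.103, 0.08 and 0.08 with ethanol. Renbp, the gene of an N-acetylglucosamine epimerase, had 0.251 and 0.207 with 4-OHT and 0 and 0 with ethanol, where 0 of 22 reads came from the intron. In MEF the group held Galt, the galactose enzyme deficient in classic galactosaemia, with 0.483, 0.48 and 0.526 with 4-OHT and 0.16, 0.262 and 0.282 with ethanol. The matrix enzyme genes Adamts7 and Plod3, which encodes a collagen lysyl hydroxylase, and the replication and nuclease genes Ciz1 and Slx1b were also higher in NPC. Adamts7 had 0.583 and 0.678 with 4-OHT, against 0.331 and 0.408 with ethanol. Ciz1, whose protein acts in the start of DNA replication, had 0.693 and 0.782 with 4-OHT and 0.435 and 0.412 with ethanol. Plod3 had 0.23 and 0.292 with 4-OHT, against 0.012 and 0.029 with ethanol. Slx1b had 1 and 0.347 with 4-OHT and 0.072 and 0.087 with ethanol, and its difference of 0.594 becomes 0.260 without code 24 and 0.928 without code 26. Genes with no assigned group, 15 in NPC and 3 in MEF, were higher but for Ccdc106. Adck5, of a family of kinase-like proteins, had the largest difference among NPC introns listed in 3 pairs, on few reads. Its levels were 0.74, 0.426 and 0.533 with 4-OHT and 0.038, 0.125 and 0 with ethanol, with 9 reads in its smallest library. Tmem191c had 1 and 1 with 4-OHT and 0.391 and 0.353 with ethanol in NPC, and 2410002F23Rik 1 and 1 with 4-OHT and 0.281 and 0.255 with ethanol in MEF, both without junction reads with 4-OHT. The difference of Tmem161a was 0.406, or 0.233 without code 24, and that of Tpra1 0.375, or 0.238 without code 28.

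The introns with a lower level with 4-OHT were few and mostly rested on junction reads that were missing with ethanol. Snrpc, which encodes the U1-C protein that steadies the pairing of U1 with the donor site, had levels of 0.026 and 0.015 with 4-OHT and 1 and 1 with ethanol in NPC. Its junction reads were 47 and 47 with 4-OHT and 0 and 0 with ethanol, while its intron reads were higher with 4-OHT, 62 and 36, against 33 and 27. With 0 of 60 reads with ethanol, up to 5% could have crossed its junction, and no level at that limit was computed. Fxr1, an RNA-binding relative of the fragile X protein, had 40 and 61 junction reads with 4-OHT and 0 and 0 with ethanol, beside 178 intron reads with 4-OHT and 176 with ethanol. Its reads with ethanol allow a junction share of up to 1.70%, for a level of 0.951. Fam98b, of the tRNA ligase complex, had 64 and 43 junction reads with 4-OHT and 0 and 0 with ethanol in MEF, on 25 intron reads with ethanol. Those 25 reads allow a junction share of up to 12%, and no level at that limit was computed. In these 3 genes intron reads were as many or more with 4-OHT, and the junction reads alone turned the level.

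Ccdc106 was the single NPC intron with a lower level and junction reads in both arms. Its levels were 0.175, 0.113 and 0.204 with 4-OHT and 1, 0.47 and 0.52 with ethanol. Without code 24, where ethanol had 0 junction reads, the ethanol levels are 0.47 and 0.52. Mettl17, an assembly factor gene of the mitochondrial ribosome, had 0.407 and 0.534 with 4-OHT and 0.864 and 1 with ethanol in MEF, on 19 junction reads with 4-OHT and 1 with ethanol. Within 8 of the members' introns an exon of another gene is annotated. It is on the opposite strand in Fxr1, Ccdc106, Fam98c and the 206-base intron of 1600002H07Rik, and on the same strand in Fxc1, U2af1l4, H2-Ke6 and 2410002F23Rik. The kit named in the labels does not mark strand, so in all 8 the reads of both genes cannot be told apart.

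Some introns were listed in both cell types. Of the 70 NPC introns 10 (14.3%) were also listed in MEF, where they made up 47.6% of the 21, and all 10 had a higher level with 4-OHT in both. Of listed events of the other splicing classes 10 were also listed in both cell types, 5.78% of the 173 in NPC and 20.0% of the 50 in MEF, and each of these too had the same direction in both. Over all listed events the shared share was 7.84% in NPC and 28.2% in MEF. The difference between these shares was not tested. The median difference of the shared introns was 0.327 in NPC and 0.326 in MEF. The remaining introns were 60 listed in NPC alone and 11 in MEF alone, and since unlisted introns have no values, these are not shown to differ between the cell types. Without the introns that lacked junction reads in 1 arm in either cell type, 6 were shared.

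Phkg2, the gene of a catalytic subunit of phosphorylase kinase, had 0.596 and 0.533 with 4-OHT and 0.267 and 0.268 with ethanol in NPC. In MEF it had 0.396 and 0.602 with 4-OHT and 0.19 and 0.179 with ethanol, and its difference of 0.315 becomes 0.206 without code 163. Ppox, which encodes protoporphyrinogen oxidase of heme synthesis, had 0.883 and 0.825 with 4-OHT and 0.551 and 0.576 with ethanol in NPC. In MEF it had 0.697 and 0.743 with 4-OHT and 0.43 and 0.452 with ethanol. Fxc1, annotated as Timm10b, serves protein import into the mitochondrial inner membrane. In NPC it had 0.441 and 0.488 with 4-OHT and 0.109 and 0.125 with ethanol.

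Adamts10, a secreted metalloprotease gene of fibrillin-rich matrix, had 0 junction reads with 4-OHT in NPC, with levels of 1 and 1 with 4-OHT and 0.491 and 0.48 with ethanol. In MEF it kept junction reads in both arms, with 0.734 and 0.769 with 4-OHT and 0.483 and 0.391 with ethanol. 0610011F06Rik was among the most retained with ethanol. It had 0.745 and 0.759 with 4-OHT and 0.513 and 0.497 with ethanol in NPC, and 0.671 and 0.666 with 4-OHT and 0.375 and 0.375 with ethanol in MEF. Its summed intron reads were lower with 4-OHT, at 349 against 391 with ethanol in NPC and 169 against 201 in MEF. The level rose because junction reads fell further, to 18 with 4-OHT against 59 with ethanol in NPC and 13 against 52 in MEF.

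Mrps17 in MEF had 0.501 and 0.429 with 4-OHT and 0.256 and 0.193 with ethanol, lower in both arms than in NPC. In MEF Fxc1 had 0.427, 0.333 and 1 with 4-OHT and 0.159, 0.089 and 0.224 with ethanol, and without code 163, which had 0 junction reads with 4-OHT, its difference of 0.429 becomes 0.256. Ankrd13b, an ankyrin repeat gene, had 0.454 and 0.573 with 4-OHT and 0.12 and 0.152 with ethanol in NPC, and 0.496 and 0.392 with 4-OHT and 0.168 and 0.047 with ethanol in MEF. Parl, an inner-membrane protease gene of mitochondria, had 0 junction reads in all 4 listed 4-OHT libraries, against 39 and 56 with ethanol in NPC and 59 and 31 with ethanol in MEF. 2500003M10Rik, annotated as Chtop, of the mRNA export complex TREX, was the deepest shared intron. It had 7308 and 5268 intron reads with 4-OHT and 5644 and 4092 with ethanol in NPC, and 0 and 0 junction reads with 4-OHT against 68 and 41 with ethanol. A second listed event at the same exons, an alternative acceptor site, was listed for this gene in both cell types.

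**Figure D4:**
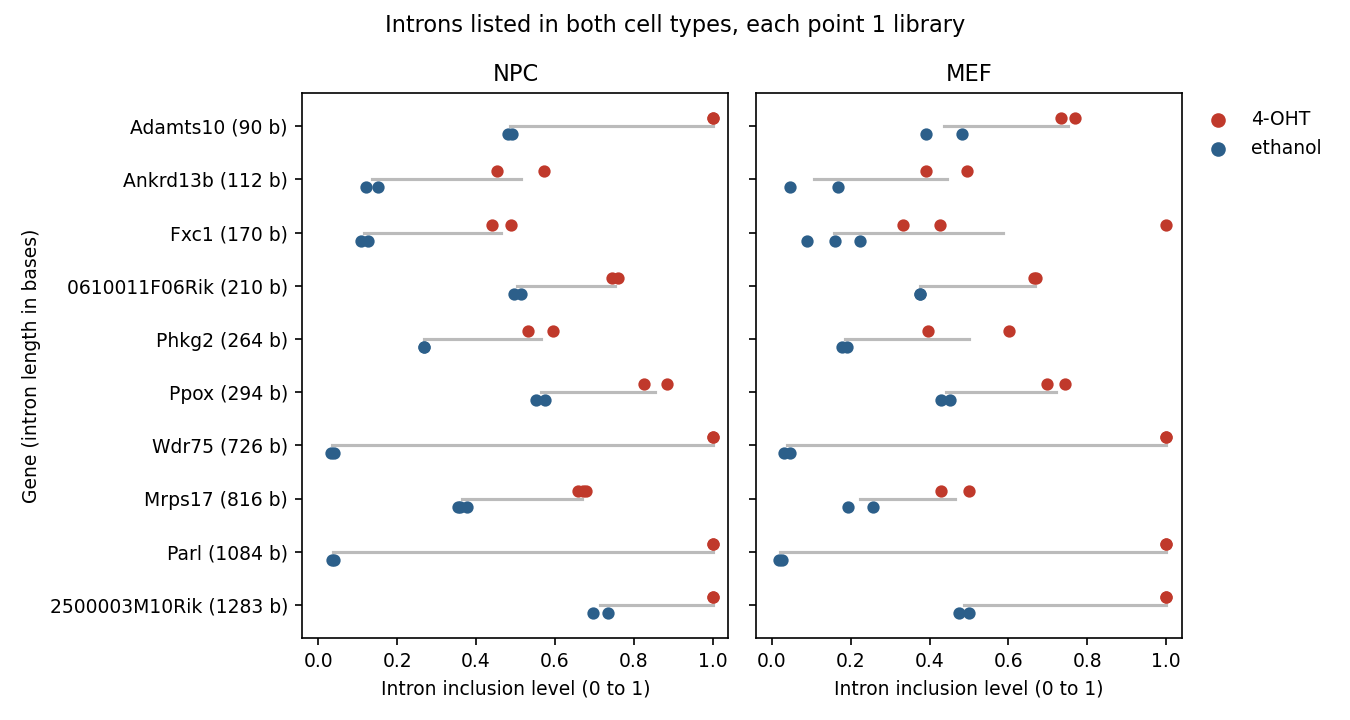
Inclusion level (0 to 1) in each listed library for the 10 introns listed in both cell types, NPC left and MEF right, shortest intron at the top, with red 4-OHT points drawn above blue ethanol points and grey bars joining the means. Every red point lies right of the blue points of its intron in both panels, and 3 introns reach 1 in every 4-OHT library of both cell types.

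The introns were short. Their median length was 213 bases in NPC (range 71 to 4146) and 294 bases in MEF (range 90 to 1547), and 224 over the 81 distinct introns. Introns of coding transcripts in GENCODE have a median of 1447 bases. A fairer background is the 11970 annotated introns that another transcript of the same gene holds inside an exon, since such pairs are what an event of this class is built from, and their median is 280 bases. In NPC 52.9% of members had 100 to under 300 bases and 17.1% fewer than 100. Of 80 matched introns 42 were shorter than the median intron of their transcript, 29 longer and 9 equal to it, and the intron was the first in 1 case and the last in 8. It lay in the coding sequence in 74 cases and in the 5′ untranslated region in 4. No background was set beside these ranks and positions, so none is shown to be particular to the members. The median difference in inclusion level was 0.389 for NPC introns under 100 bases, 0.297 from 100 to under 300 bases, 0.335 from 300 to under 1000 bases and 0.315 at 1000 bases or more, with no steady order. In MEF it was 0.315 for the 1 intron under 100 bases, and 0.326, 0.535 and 0.728 for the 10, 6 and 4 introns of the longer classes in turn. Of these MEF classes 0, 1, 3 and 4 introns had no junction reads in 1 arm, so all 4 of the longest did.

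Donor sites of the members were less like the reference donor than those of the background. Members matched it at a mean of 5.35 ± 0.920 of 9 positions (SD, n = 79), against 6.03 ± 1.11 in the background (SD, n = 11970). The background had 4 matches in 5.31%, 5 in 22.5%, 6 in 37.2% and 7 in 25.3% of introns. At least 7 matches were found in 8.86% of members and 33.3% of the background, and 5 or fewer in 55.7% of members and 29.5% of the background. The lower mean was present in each length class, at 5.67, 5.38, 5.25 and 5.09 in members, from shortest to longest, against 6.05, 5.91, 6.05 and 6.22 in the background. Members with junction reads in both arms had a mean of 5.21 ± 0.864 (SD, n = 63) and those without junction reads in 1 arm 5.94 ± 0.929 (SD, n = 16). By position, the last exon base was G in 67.1% of members and 79.0% of the background, and the third intron base A in 35.4% of members and 49.8% of the background. These are descriptions of the introns the authors listed, with no test. The background was not limited to genes expressed in these cells, and the members include the introns with a lower level with 4-OHT.

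Most other sequence features lay close to the background, apart from the position of the first in-frame stop codon. All 79 introns with a sequence began with GT and ended with AG, against 96.8% of the background, and none held ATCCTT, the core of minor spliceosome donors, in its first 8 bases, against 0.426%. Mean GC content was 51.8% in members and 50.8% in the background, and pyrimidines made up 66.7% of the last 20 bases in members and 66.8% in the background. Of 74 introns within coding sequence 66 (89.2%) held a stop codon in the frame of the upstream exon, against 87.0% of the background. The first one started at a median of base 23 of the intron, against base 37. The introns without one were those of Adamts7, Ciz1, Fxr1, Med12, Plod3 and Skiv2l, which keep the frame, and of H2-Ke6 and Lmbr1l, which shift it.

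**Figure D5:**
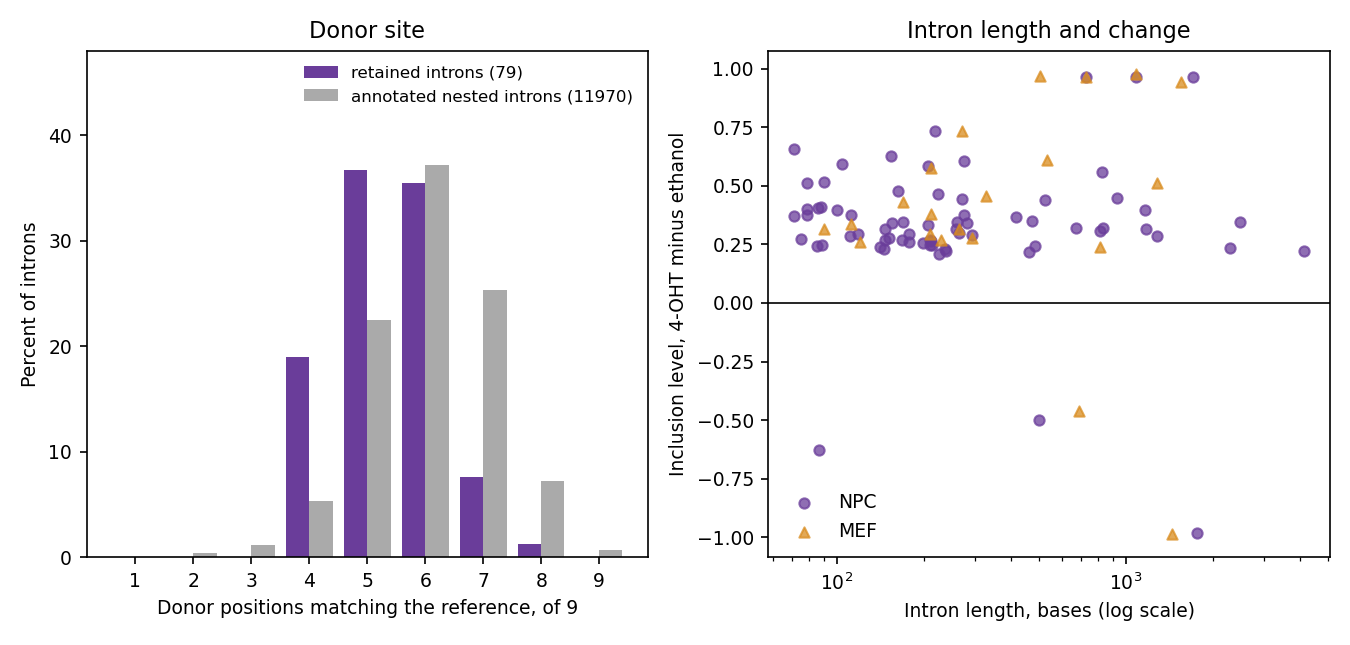
Left, percent of introns by the number of donor positions, of 9, that match the reference, for 79 retained introns (purple) and 11970 annotated introns held in an exon of another transcript (grey). Right, difference in inclusion level, 4-OHT minus ethanol, against intron length on a log scale, 1 point per intron. Members have nearly equal shares at 5 and 6 matches, 36.7% and 35.4%, and the background peaks at 6. On the right, most points lie above 0 at all lengths.

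Few of the genes were listed as changed in expression. In NPC 9 of 68 genes (13.2%) were listed, against 12.7% of genes with other listed splicing events and 4.36% of all annotated gene names, many of which are not expressed. Of the members 3 (4.41%) were higher with 4-OHT and 6 (8.82%) lower, against 4.23% higher and 8.45% lower among genes with other events, so the shares lay near this background. The authors' deposited table gives 0610011F06Rik the most negative log2 fold change of the members, -1.31, at 3.92 RPKM with 4-OHT and 9.69 RPKM with ethanol. Slc1a5, the glutamine transporter gene ASCT2, had 4.73 RPKM with 4-OHT and 9.41 RPKM with ethanol (log2 fold change -0.99) in the authors' deposited table. H2-Ke6, Rccd1, Ddx51 and 1600002H07Rik were also lower, and in the authors' deposited table their log2 fold changes were -0.82, -0.78, -0.77 and -0.70. The authors' deposited table gives the higher genes Ccdc106, Renbp and Ampd2 log2 fold changes of 1.26, 0.97 and 0.86. Ccdc106, whose intron was held less often, and Ampd2, whose intron was held more often, were thus both higher. In MEF 1 of 21 genes (4.76%) was listed, Adamts10, at 13.3 RPKM with 4-OHT and 8.22 RPKM with ethanol in the authors' deposited table. Among genes with other MEF events 2.56% were listed, and among annotated names 0.201%, of which 0.101% higher and 0.0994% lower. Reads of a kept intron are part of a gene's RNA, and each arm has 1 RPKM value with no spread between libraries.

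The machinery that removes introns, or that exports or degrades transcripts which keep them, was read from lists of 163 genes in the expression tables. In NPC 2 of the 163 were listed as higher with 4-OHT and 18 as lower. Of annotated names, many of which are not expressed, 2.47% were higher and 1.90% lower. Among genes with other listed splicing events 4.23% were higher and 8.45% lower, and the difference from these shares was not tested. Of 24 genes of Sm proteins, their assembly and PRMT5 partners, 2 were lower, among them Snrpf of the Sm ring, at 22.6 RPKM with 4-OHT and 34.4 RPKM with ethanol in the authors' deposited table. The U1 and U2 lists, 8 and 19 genes, had 0 listed genes, though 2 genes of the U1 list, Snrpc and Prpf40b, and 1 of the U2 list, U2af1l4, held a listed intron in NPC. Of 9 minor spliceosome genes 2 were lower, Snrnp25 and Snrnp35, and of 22 step and Prp19 factors 2, Isy1 and Dhx38. Of 23 genes of the U4/U6.U5 tri-snRNP 2 were higher, Prpf3 and Snrnp200, and 5 lower, with Ppih at 3.76 RPKM with 4-OHT and 6.49 RPKM with ethanol in the authors' deposited table.

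Of 22 genes of the exosome and RNA decay 4 were lower, and Exosc8, an exosome ring subunit gene, had 25.6 RPKM with 4-OHT and 47.2 RPKM with ethanol in the authors' deposited table. For Dcp2, the decapping enzyme gene, the authors' deposited table gives a log2 fold change of -0.69. Of 17 genes of nonsense-mediated decay 1 was lower, Rbm8a, whose protein marks exon junctions, at 11.0 RPKM with 4-OHT and 16.7 RPKM with ethanol in the authors' deposited table. Of 19 mRNA export genes 2 were lower, with Nxt1, a partner of the export receptor, at 17.6 RPKM with 4-OHT and 30.5 RPKM with ethanol in the authors' deposited table. In MEF 0 of the 163 genes were listed.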

How the data were processed

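Libraries of 3 replicates per group were made from total RNA with an Illumina TruSeq v2 kit, per the labels' protocols. The submitters' processing notes name CASAVA 1.8, TopHat2 2.03, Bowtie2 2.0.0.6, Cuffdiff 2.02 and the build mm9, and the splicing tables are MATS output by name. The sources used here give neither other settings nor library totals. The authors deposited, for each event and pair, the count of intron-containing and of spliced junction reads, and an inclusion level as a fraction of 1. The deposited level divides each count by a length, close to (intron length + 22)/36 for 68 of 69 NPC and 16 of 19 MEF introns, within 3%. The deposited difference is a score of ethanol minus 4-OHT, and was turned round here. The deposited p-value is per pair and unadjusted, and events are listed at p under 0.05 and a difference over 0.2 in at least 2 pairs. The deposited RPKM values, 1 per arm, and their log2 fold change cover listed genes only.

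Members and lists were chosen with earlier results of these data known. Inclusion levels were averaged over listed libraries. The 3 against 3 libraries were compared with an exact permutation test over all splits, computed with numpy 2.4.6, which was tested on simulated data. A limit of 3 counts stands for 0 reads. Introns were matched within the Ensembl gene by length to GENCODE M21 (GRCm38), 80 of 81, of which 79 had a sequence in transcripts that hold the intron. Coordinates of values are mm9, 1-based, and those of sequences GRCm38. Donor matches count letters over 9 positions, and the stop codons searched were TAA, TAG and TGA on the transcript's strand. Named introns were the largest changes listed in 3 pairs, those listed in both cell types, all lower ones, the longest, shortest and deepest, genes with 2 introns, genes in the expression tables, and up to 4 examples per function group. A result on 1 intron that this rule names is not reported here. Further members were named after their values were seen. Function groups were assigned by hand from gene names. Pair codes match no label. Deviations from the arm means were correlated between libraries of the same code, at 0.177, 0.160 and 0.123 over 57 NPC events. Over 8 MEF events the correlations were 0.232, 0.665 and 0.252. Libraries of different codes gave -0.222 to 0.0999 in NPC and -0.478 to 0.125 in MEF. The NPC values are small, the MEF events few and deviations within an arm not independent, so whether a code marks a true pair was not tested.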

Additional observations from a re-analysis of the deposited data

How the results depend on the processing

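Requiring 3 listed pairs left 22 higher and 1 lower introns in NPC and 4 and 0 in MEF, with a median difference of 0.350 and a median length of 200 bases in MEF. A deposited p under 0.001 in every listed pair left 28 higher in NPC, and 8 higher and 0 lower in MEF. A mean difference of at least 0.3 left 40 higher in NPC. With at least 20 reads in every library 1 lower intron was left in MEF and the MEF median difference was 0.405. Pooling reads over libraries gave 0.332 in MEF. Leaving out 1 pair code gave a MEF median difference of 0.299 to 0.466, and could turn no direction, since every listed event has the same sign in each of its listed pairs. Choices added after seeing the data were of 2 kinds. Introns listed in at least 2 remaining pairs were 31 to 47 higher (33 without code 26) and 1 to 2 lower in NPC, and 8 to 10 higher (9 without code 159) and 0 to 1 lower in MEF. Leaving out introns without junction reads in 1 arm left 1 lower in each cell type, 12 higher and a median difference of 0.315 in MEF, and 6 shared introns. A deposited p under 0.01 left 0 MEF genes in the expression table. With the deposited pairs as a replicate block, the sign was the same in all 3 pairs for 23 of 23 introns in NPC and 4 of 4 in MEF, and the exact sign-flip test over pairs gave p = 0.25, the smallest it allows. That sign too is fixed by the listing. Of 62 differences of named introns, the level from raw reads, without length correction, moved 46 by more than the spread between libraries, and pooling reads moved 1. Fewer than 20 reads, of both kinds together, were present in some library for 7 introns in NPC and 3 in MEF.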

Other observations

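Among genes whose retained intron was listed in MEF alone, 2 were listed as changed in expression in NPC. Lrdd, the death domain gene, had 14.3 RPKM with 4-OHT and 6.78 RPKM with ethanol in the authors' deposited table, and Galt 2.45 RPKM with 4-OHT and 1.08 RPKM with ethanol. The event at the same exons was also listed under another splicing class for Mrps17 and Arfrp1 in NPC and for Mettl17 in MEF.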
